A study of Mus musculus with 4 samples.

Results

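The 38 genes described here encode the calcium channels, calcium pumps, store proteins and calmodulin-dependent kinases of the vessel wall. They were chosen by name, with earlier results of these data known. All 38 were found among the 24344 gene symbols of the files, and they were grouped by the step of calcium handling each protein serves. RNA came from aorta of 3-week-old C57BL/6 mice of both sexes, with 2 wild-type libraries (WT) and 2 libraries from mice in which Ggps1 was knocked out (KO). Ggps1 encodes GGPPS, the isoprenoid enzyme that makes geranylgeranyl diphosphate. No other treatment, allele or agent is given for either group, and the Cre driver, the deleted cells and the number of animals in a library are not given in the sources used here. Levels are FPKM, fragments scaled to transcript length and to the number of mapped fragments. A gene's difference is KO minus WT on the log2(FPKM + 1) scale, with its standard error (SE) and an adjusted p from limma, and a gene was called at an adjusted p under 0.05.

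Contraction of arterial smooth muscle is set by cytosolic calcium, which binds calmodulin and so activates myosin light chain kinase. Calcium enters through voltage-gated, store-operated, TRP, ATP-gated and stretch-gated channels, and it leaves the sarcoplasmic reticulum through ryanodine receptors and IP3 receptors. It is cleared by pumps of the SERCA family into the store, and across the plasma membrane by pumps of the PMCA family and by the sodium-calcium exchanger.

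The L-type channel gene Cacna1c, the store release channel gene Itpr1, the reuptake pump gene Atp2a2 and the extrusion pump gene Atp2b4 fell in KO, while Itpr3, P2rx4 and Atp2b1, relatives of fallen genes, rose. Of the 38 genes, 32 reached 1 FPKM in at least 2 libraries and were tested, and 19 of them were lower and 7 higher in KO. Those 26 calls are 81.2% of the tested members, beside 65.7% of all genes tested. Over all 12313 genes tested, 30.6% were called lower and 35.2% higher, against 59.4% and 21.9% of these 32. Since the members were chosen with earlier results of these data known, such shares describe the list and do not test it. Changes of at least 2-fold on the log2 scale were found for 11 lower and 3 higher members, where 7.62% and 10.9% of all genes tested were so called. Cacna1d and Cacna1g were tested only because both WT libraries reached the filter, so they could be called only as lower. Among the other 30 members, 17 were lower and 7 higher. Of these, Orai2 reached 1 FPKM in 2 KO libraries and 1 WT library, and Ryr2 in 2 WT libraries and 1 KO library. Both therefore passed the filter only with the libraries of the genotype in which they were higher. Both KO libraries lay below both WT libraries for 22 tested members and above for 7, as they did for 39.6% and 43.6% of all genes tested. The median log2 fold change was -0.57 over the 32 tested members, -0.50 over those 30, and 0.03 over all genes tested. The member lists of both calls are shown in the plot of fold changes. Scaling all libraries to equal FPKM totals moved the median of all genes to -0.20 and the share of calls that were higher from 53.5% to 35.5%, and it gave 22 lower and 6 higher members.

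**Figure D1:**
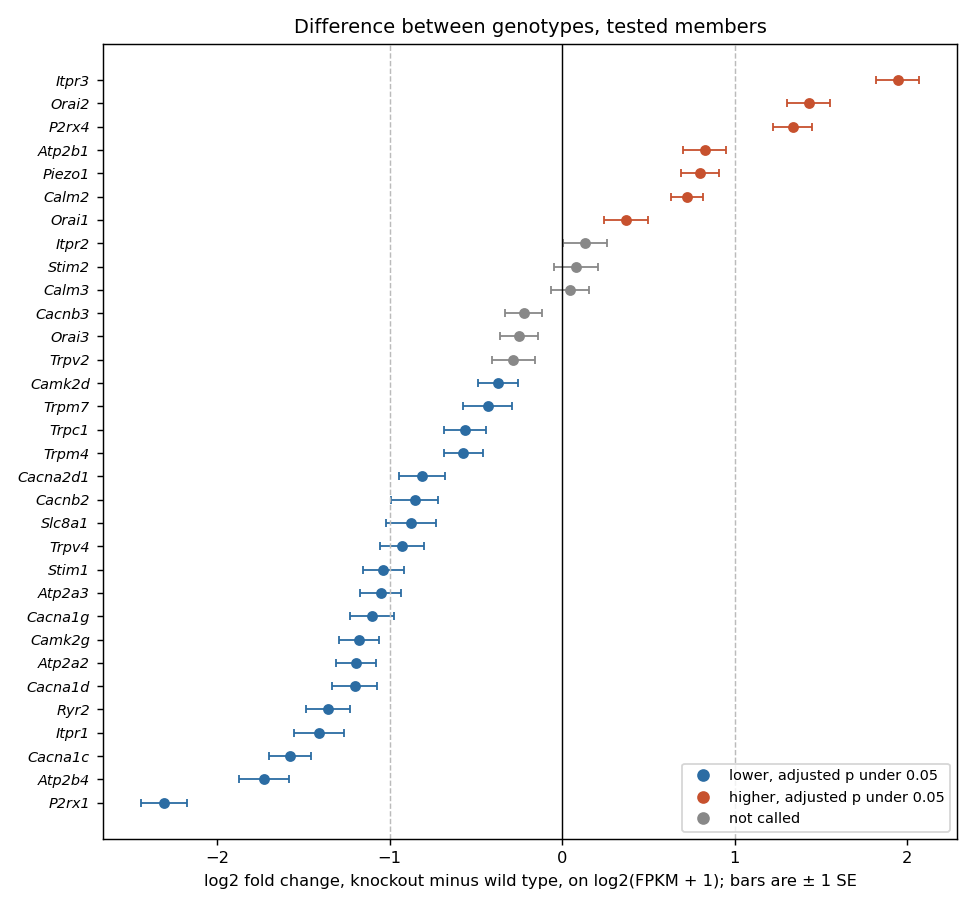
Log2 fold change (KO minus WT, log2(FPKM + 1) scale) of the 32 tested calcium-handling genes, ordered by value, with bars of 1 SE from limma, fitted to 2 libraries per genotype. Blue points were called lower, orange points higher and grey points neither, dashed lines mark 2-fold, and the values run from -2.31 for P2rx1 to 1.94 for Itpr3.

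Promoter windows of 250 bases before to 50 bases after the RefSeq start site (GRCm38.p6) were available for 30 of the 38 genes. The windows printed show what lies upstream of genes at both ends of the range on the log2(FPKM + 1) scale. They belong to the 3 members with a window that fell most on that scale and to the 1 that rose most. They are P2rx1 (chr11:72998895-72999194, plus strand), Atp2b4 (chr1:133753698-133753997, minus strand), Cacna1c (chr6:119196360-119196659, minus strand) and Itpr3 (chr17:27057054-27057353, plus strand), read 5′ to 3′, with capitals for the 1 motif match found.
P2rx1: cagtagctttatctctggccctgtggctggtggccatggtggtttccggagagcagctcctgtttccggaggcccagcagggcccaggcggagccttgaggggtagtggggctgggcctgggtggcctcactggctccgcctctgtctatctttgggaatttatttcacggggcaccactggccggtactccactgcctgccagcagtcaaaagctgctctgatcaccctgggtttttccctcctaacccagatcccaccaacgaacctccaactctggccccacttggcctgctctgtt
Atp2b4: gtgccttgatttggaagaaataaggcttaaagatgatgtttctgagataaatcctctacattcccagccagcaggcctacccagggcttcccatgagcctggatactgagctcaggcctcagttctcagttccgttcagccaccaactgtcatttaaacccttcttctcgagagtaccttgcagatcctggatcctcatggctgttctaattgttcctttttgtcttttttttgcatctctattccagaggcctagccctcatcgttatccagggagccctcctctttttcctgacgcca
Cacna1c: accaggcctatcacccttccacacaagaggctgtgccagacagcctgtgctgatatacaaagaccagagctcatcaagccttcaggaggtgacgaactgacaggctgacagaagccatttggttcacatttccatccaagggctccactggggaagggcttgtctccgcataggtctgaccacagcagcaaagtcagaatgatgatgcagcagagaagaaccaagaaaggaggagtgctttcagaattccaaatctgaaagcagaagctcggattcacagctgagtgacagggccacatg
Itpr3: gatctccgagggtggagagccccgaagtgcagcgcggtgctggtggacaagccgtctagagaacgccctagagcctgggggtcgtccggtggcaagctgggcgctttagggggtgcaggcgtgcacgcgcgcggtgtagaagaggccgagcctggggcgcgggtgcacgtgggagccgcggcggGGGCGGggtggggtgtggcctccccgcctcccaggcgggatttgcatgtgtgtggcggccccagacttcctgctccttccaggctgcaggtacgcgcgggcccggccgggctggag
The 3 windows of fallen genes had a GC content of 60.7%, 47.7% and 51.3%, in the order printed, and that of Itpr3 72.3%. The Atp2b4 window lies 47294 bases inside the gene as GENCODE draws it, so it belongs to an internal start. Motifs searched on both strands were the GC box GGGCGG, the AP-1 motif TGANTCA, the letters TATAAA and the CArG box bound by serum response factor. The GC box was present in 35.7% of all 32851 windows of this length. It was present for 23 of the 30 members with a window, among them 10 of 14 lower and 6 of 6 higher members. The CArG box was present in 1.63% of all windows and in 1 of the 30 members with a window, and in none of the 14 lower members. TGANTCA was present in 7.81% of all windows and in no member, and TATAAA in 13.6% of windows and 5 of 30 members. The percentages count windows, whereas the members are genes with a match in any of their windows, and Cacna1c had 3. The 2 kinds of share are therefore not of the same unit. These matches describe letters in these windows only.

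The libraries matched their labels, since Ggps1 (GRCm38 chromosome 13, 14050659 to 14063488) stood at 8.96 and 10.6 FPKM in WT and 1.18 and 1.07 FPKM in KO. FPKM totals were 515927 and 520478 in WT and 611767 and 632918 in KO. Defining smooth muscle genes were present, with Acta2 at 6277 and 7437 FPKM in WT and 1049 and 1791 FPKM in KO. All 14 markers of contractile smooth muscle fell (median -2.22), and their summed FPKM was 22450 and 24900 in WT and 5310 and 7099 in KO. Endothelial markers fell in 10 of 10 tested cases, from sums of 324.6 to 325.7 FPKM down to 112 to 127.0 FPKM. Adventitial fibroblast markers fell in 8 of 11 and rose in 2, with sums of 2499 and 2483 FPKM in WT and 1185 and 1377 FPKM in KO, and pericyte markers fell in 5 of 7 and rose in 1. Macrophage markers rose in 13 of 14, from sums of 77.7 to 79.1 FPKM up to 482.5 to 567.8 FPKM, and other leukocyte markers rose in 5 of 5 tested, from 3.67 to 5.26 FPKM up to 51.2 to 56.7 FPKM, while 7 others of that list were untested. Of these markers, 5 for macrophages and 3 for other leukocytes reached the filter in KO only and could be called only as higher. Among those that reached it in both genotypes, 8 of 9 and 2 of 2 rose. Of those 2 leukocyte markers, Coro1a was at 1.275 and 0.833 FPKM in WT, and so at 1 FPKM or more in only 1 WT library. In bulk tissue, fewer cells of a type and less RNA per cell cannot be told apart. What part these shifts had in any result below was not tested.

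**Figure D2:**
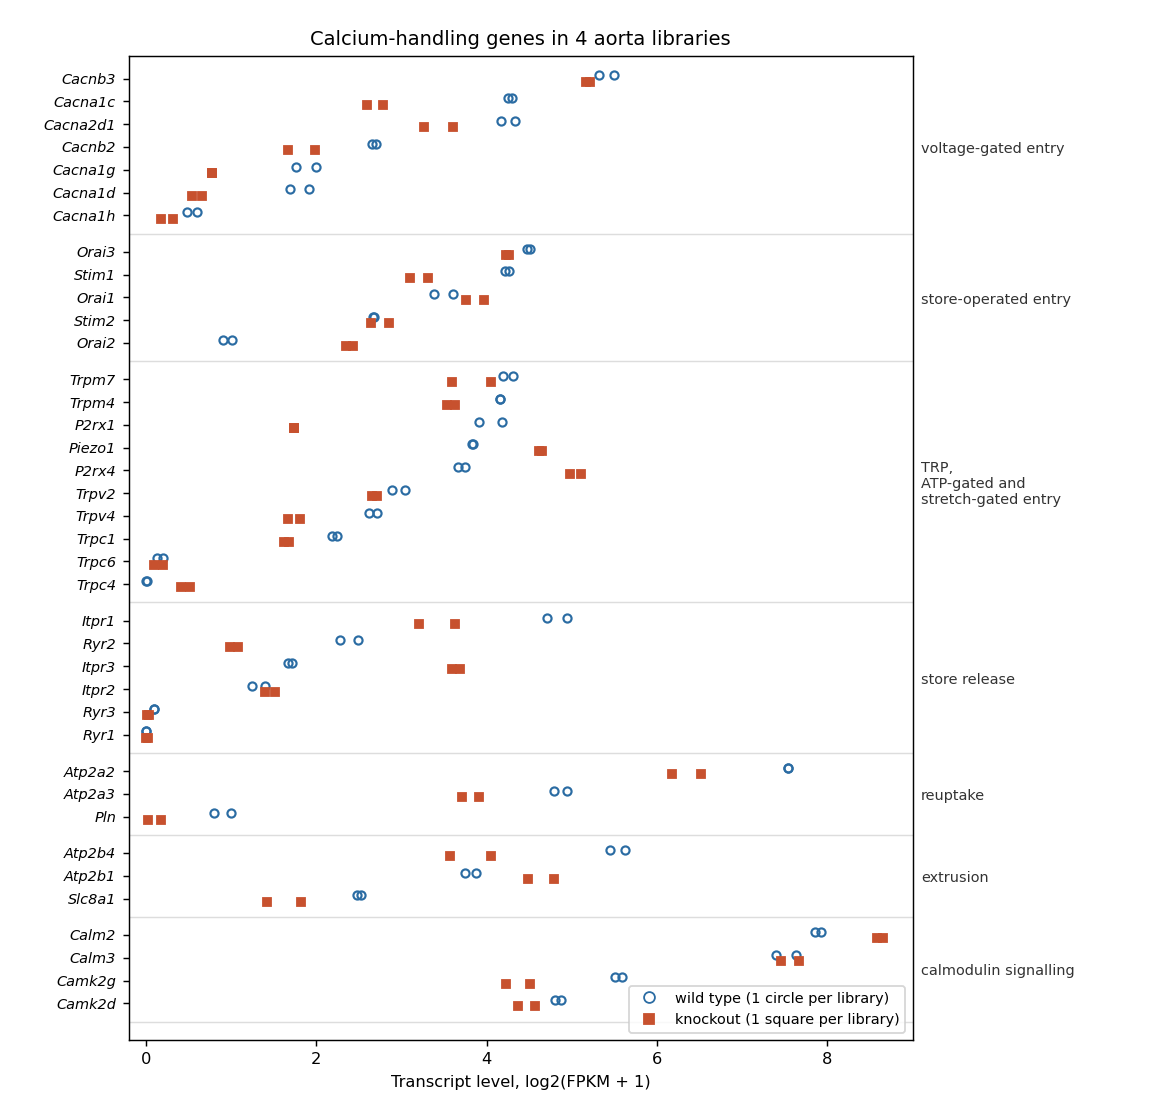
Level of each of the 38 genes in each library as log2(FPKM + 1), grouped by role and ordered by the WT mean, with 1 open circle per WT library and 1 filled square per KO library. Squares lie to the left of circles for Cacna1c, Atp2a2 and Atp2b4, and to the right for Itpr3, Orai2, P2rx4 and Atp2b1.

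The voltage-gated channel consists of a pore-forming alpha-1 subunit with alpha-2/delta and beta subunits that aid its trafficking and gating. None of its 6 tested genes rose and 5 fell, beside 35.2% and 30.6% of all genes tested. Of these 6, Cacna1d and Cacna1g could be called only as lower. Of the other 4, 3 fell. Cacna1c (chromosome 6, 118587240 to 119196418, minus strand), the pore of the L-type channel that carries most depolarization-driven calcium entry in arteries, was at 18.6 and 18 FPKM in WT and 5.06 and 5.90 FPKM in KO. Both KO libraries lay well below both WT libraries, a 3.34-fold lower mean (limma log2 fold change -1.58, SE 0.12, adjusted p = 8.72e-08). The second L-type pore gene, Cacna1d (chromosome 14, 30039939 to 30491455, minus strand), stood at 2.24 and 2.77 FPKM in WT and 0.457 and 0.581 FPKM in KO. Cacna1g (chromosome 11, 94408391 to 94474198, minus strand), a T-type pore that opens at more negative voltages, stood at 2.41 and 2.99 FPKM in WT and 0.716 and 0.714 FPKM in KO. Their log2 fold changes were -1.20 (SE 0.13) and -1.10 (SE 0.13), with limma adjusted p = 2.18e-06 and 4.57e-06. After trends with transcript length and GC content were taken out, these became -0.77 and -0.56, and with a pseudocount of 5 FPKM -0.44 and -0.43. With a pseudocount of 0.1 FPKM they were -2.07 and -1.77, and both genes were called in all 3 settings. Cacna1c supplied 78.7% and 74.1% of the summed FPKM of the 4 pore genes in WT and 79.5% and 79.2% in KO, so its share of the pore transcripts moved by a few percentage points at most.

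On the log2(FPKM + 1) scale the auxiliary subunits had smaller log2 fold changes than the tested pores, a difference that was not tested. Of those pores, Cacna1d and Cacna1g reached the filter in WT only. The order did not hold with a pseudocount of 5 FPKM. There Cacna2d1 was at -0.63 and Cacnb2 at -0.46, against -0.44 for Cacna1d and -0.43 for Cacna1g. Cacna2d1, the alpha-2/delta subunit, was at 17.0 and 19.1 FPKM in WT and 8.64 and 11.2 FPKM in KO (limma log2 fold change -0.81, SE 0.13, adjusted p = 0.000112). Cacnb2, a beta subunit, was at 5.53 and 5.31 FPKM against 2.19 and 2.96 FPKM (limma log2 fold change -0.85, SE 0.14, adjusted p = 8.32e-05, and -0.46 with a pseudocount of 5 FPKM). Its relative Cacnb3, the most abundant gene of this group, was at 44.2 and 39.0 FPKM in WT and 36.0 and 35.0 FPKM in KO and was not called (limma log2 fold change -0.22, SE 0.11, adjusted p = 0.0845). Cacnb3 was called lower with equal column totals (-0.48, limma adjusted p = 0.00125), with quantile normalization (-0.32, 0.0198) and with equal medians of log2 ratios (-0.25, 0.0498). Within a library the ratio of Cacnb2 to Cacnb3 was 0.125 and 0.136 in WT and 0.0608 and 0.0845 in KO, without overlap. Cacna1h, another T-type pore, did not reach the filter, at 0.401 and 0.523 FPKM in WT and 0.129 and 0.252 FPKM in KO.

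Store-operated entry joins STIM proteins, which sense calcium inside the store, to ORAI pores in the plasma membrane. This group split, with Stim1 lower and Orai1 and Orai2 higher. Stim1 (chromosome 7, 102267806 to 102437319, plus strand) was at 17.65 and 18.2 FPKM in WT and 7.60 and 8.90 FPKM in KO, with both KO libraries far below both WT libraries. Its mean was 2.17-fold lower (limma log2 fold change -1.04, SE 0.12, adjusted p = 4.6e-06). The second sensor, Stim2, was at 5.40 and 5.37 FPKM in WT and 5.26 and 6.25 FPKM in KO, with overlapping groups (limma log2 fold change 0.08, SE 0.13, adjusted p = 0.601). The within-library ratio of Stim1 to Stim2 was 3.27 and 3.40 in WT and 1.45 and 1.42 in KO.

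Among the pores, Orai2 (chromosome 5, 136147459 to 136170713, minus strand) was the least abundant in WT, at 0.881 and 1.02 FPKM, and reached 4.39 and 4.11 FPKM in KO. It was at 1 FPKM or more in both KO libraries but in only 1 WT library. Its mean was 4.47-fold higher (limma log2 fold change 1.43, SE 0.12, adjusted p = 2.72e-07, and 0.64 on the log2 scale with a pseudocount of 5 FPKM). Orai1, the pore of the classical store-operated current, was at 11.1 and 9.46 FPKM in WT and 14.7 and 12.5 FPKM in KO. The 2 genotypes did not overlap, and the rise was small (limma log2 fold change 0.37, SE 0.13, adjusted p = 0.0211). That call ended without WT library 2 (0.26, limma adjusted p = 0.263), without KO library 1 (0.26, 0.0974), with no filter (0.37, 0.0641), with quantile normalization (0.34, 0.0522) and with equal column totals (0.13, 0.384). Across the alternatives its adjusted p ran from 0.01 to 0.384. Orai3 was at 21.8 and 21.2 FPKM in WT and 17.7 and 18.2 FPKM in KO (limma log2 fold change -0.25, SE 0.11, adjusted p = 0.0557), and it was called lower in 5 of 14 alternatives. As a share of the summed FPKM of the 3 pores, Orai2 made up 2.60% and 3.22% in WT and 11.9% and 11.8% in KO, while Orai3 made up 64.5% and 66.9% in WT and 48.1% and 52.2% in KO. Orai2 is known to be used widely by immune cells, whose markers rose in the same libraries as given above.

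Of the TRP, ATP-gated and stretch-gated channels, 8 of 10 were tested. Of these 8, 5 fell and 2 rose, beside 30.6% and 35.2% of all genes tested. P2rx1 (chromosome 11, 72999103 to 73015200, plus strand), the ATP-gated channel through which sympathetic nerves contract arteries, had the largest fall of any tested member on the log2(FPKM + 1) scale. It was at 14 and 17.2 FPKM in WT and 2.33 and 2.34 FPKM in KO, a 6.68-fold lower mean (limma log2 fold change -2.31, SE 0.13, adjusted p = 4.61e-09, and -1.49 with a pseudocount of 5 FPKM). A relative, P2rx4 (chromosome 5, 122707544 to 122729738, plus strand), moved the other way. P2rx4 was at 11.7 and 12.5 FPKM in WT and 30.5 and 33.6 FPKM in KO (limma log2 fold change 1.34, SE 0.11, adjusted p = 2.07e-07). Piezo1, the stretch-gated channel (chromosome 8, 122481698 to 122551329, minus strand), was at 13.2 and 13.4 FPKM in WT and 23.6 and 24.0 FPKM in KO (limma log2 fold change 0.80, SE 0.11, adjusted p = 2.19e-05, and 1.37 with trends in length and GC taken out). The annotation places 24.6% of the exonic bases of Piezo1 opposite the gene Ctu2, which itself stood at 5.65 and 5.36 FPKM in WT and 7.74 and 6.90 FPKM in KO. Since strand use in counting is not stated, their reads may not be told apart there. P2rx4 and Piezo1 are also used by macrophages, and 13 of 14 macrophage markers rose in these libraries, of which none was at 0 in WT. The part of these cells in either rise was not tested.

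The fallen TRP genes changed by smaller factors than P2rx1 and P2rx4. Trpv4, a channel opened by swelling and lipid mediators, was at 5.55 and 5.16 FPKM in WT and 2.17 and 2.52 FPKM in KO (limma log2 fold change -0.93, SE 0.13, adjusted p = 1.98e-05). Trpm4, a channel that calcium opens and that passes monovalent ions, was at 16.8 in both WT libraries and at 10.6 and 11.4 FPKM in KO (limma log2 fold change -0.57, SE 0.11, adjusted p = 0.000547, and -0.35 with trends in length and GC taken out). Trpc1, a subunit of receptor-operated channels, was at 3.55 and 3.74 FPKM against 2.07 and 2.21 FPKM (limma log2 fold change -0.56, SE 0.12, adjusted p = 0.0011). Each of these 3 genes had both KO libraries below both WT libraries. With a pseudocount of 5 FPKM the log2 fold change was -0.50 for Trpv4 and -0.28 for Trpc1, and both were still called. Trpm7, a channel fused to a kinase, was at 17.3 and 18.8 FPKM in WT and 11.1 and 15.5 FPKM in KO (limma log2 fold change -0.43, SE 0.14, adjusted p = 0.0166). The 2 KO libraries lay apart from each other, and the call ended without KO library 1 (-0.21, limma adjusted p = 0.118), without WT library 2 (-0.37, 0.0957), with no filter (-0.43, 0.0848) and with trends in length and GC taken out (-0.17, 0.224), over a range of adjusted p from 0.000656 to 0.224. Without KO library 2 it was -0.66 and with equal column totals -0.68. Trpv2 was at 6.43 and 7.22 FPKM in WT and 5.30 and 5.55 FPKM in KO and was not called (limma log2 fold change -0.28, SE 0.12, adjusted p = 0.058), though it was called lower in 4 of 14 alternatives.

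2 receptor-operated channels of the same family did not reach the filter. Trpc6 was at 0.148 and 0.0985 FPKM in WT and 0.0673 and 0.148 FPKM in KO, with overlap. Trpc4 was at 0.0124 FPKM in WT library 1, was listed at 0 in WT library 2, and stood at 0.431 and 0.331 FPKM in KO. No fold is given for it, because of the listed 0.

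Among the store release genes, transcripts of Itpr1 fell and those of Itpr3 rose. The 3 IP3 receptors open when IP3, made by receptors coupled to phospholipase C, binds them. Itpr1 (chromosome 6, 108213096 to 108551109, plus strand), the main IP3 receptor of smooth muscle, was at 25.1 and 29.8 FPKM in WT and 8.22 and 11.3 FPKM in KO. Both KO libraries lay below both WT libraries, and the mean was 2.81-fold lower (limma log2 fold change -1.41, SE 0.14, adjusted p = 1.4e-06). Itpr3 (chromosome 17, 27057304 to 27122223, plus strand) was at 2.30 and 2.19 FPKM in WT and 11.04 and 11.9 FPKM in KO, the largest rise of any tested member on the log2(FPKM + 1) scale. Its mean was 5.12-fold higher (limma log2 fold change 1.94, SE 0.12, adjusted p = 1.24e-08, and 1.19 with a pseudocount of 5 FPKM). Itpr2 was at 1.38 and 1.65 FPKM in WT and 1.64 and 1.86 FPKM in KO, with overlapping groups (limma log2 fold change 0.13, SE 0.13, adjusted p = 0.37, and 0.61 with adjusted p = 0.000864 after trends in length and GC were taken out). Itpr1 thus made up 87.2% and 88.6% of the summed FPKM of the 3 receptors in WT and 39.3% and 45.1% in KO, and Itpr3 made up 7.99% and 6.50% in WT and 52.8% and 47.5% in KO. Summed over the ryanodine and IP3 receptors, release channels stood at 32.7 and 38.4 FPKM in WT and 21.9 and 26.3 FPKM in KO.

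Ryanodine receptors open in response to calcium itself and produce the sparks that feed potassium channels in arterial muscle. Ryr2 (chromosome 13, 11553102 to 12106945, minus strand) was at 3.87 and 4.64 FPKM in WT and 0.985 and 1.11 FPKM in KO, a 4.06-fold lower mean (limma log2 fold change -1.36, SE 0.13, adjusted p = 6.88e-07). It was at 1 FPKM or more in both WT libraries but in only 1 KO library. Its log2 value was -0.80 with trends in length and GC taken out and -0.61 with a pseudocount of 5 FPKM, and it was called in both. Ryr2 held 98.1% and 98.6% of the summed FPKM of the 3 ryanodine receptors in WT and 97.3% and 97.8% in KO. Ryr1 and Ryr3 stayed under the filter. Ryr3 was at 0.0697 and 0.0656 FPKM in WT and 0.00849 and 0.0231 FPKM in KO, and Ryr1, the skeletal muscle form, at no more than 0.0191 FPKM in any library. Ryr2 is also the receptor of heart muscle, whose defining markers were low, with Myl3 listed at 0 in all libraries and Myh6 at 0.508 and 0.651 FPKM in WT and 0.0257 and 0.0622 FPKM in KO. Of 12 heart markers 3 were tested, and Tnni3 and Actc1 fell while Tnnt2 rose. Actc1 reached the filter in WT only and could be called only as lower. The list summed to 25.3 FPKM in both WT libraries and to 73.2 and 85.9 FPKM in KO, where Tnnt2 alone was at 69.8 and 82.7 FPKM.

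**Figure D3:**
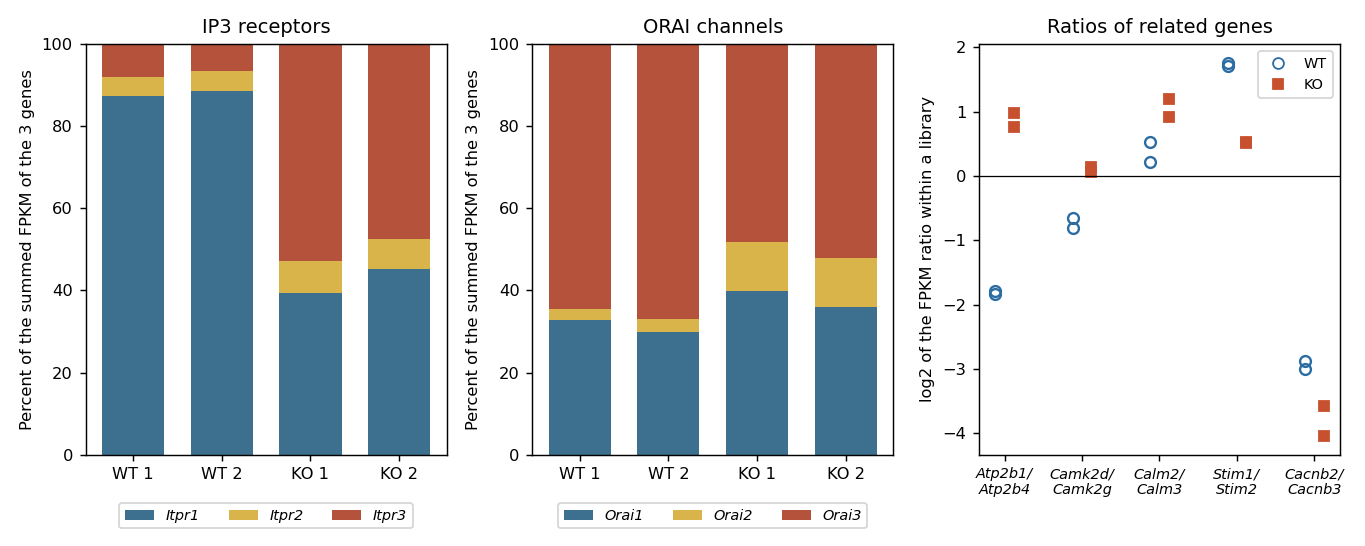
Make-up of gene families within each library. The left and middle panels give the percent of the summed FPKM that each IP3 receptor or ORAI gene supplied in 2 WT and 2 KO libraries, and the right panel gives log2 ratios of related genes, with open circles for WT and squares for KO. Itpr1 fell from 87.2% and 88.6% to 39.3% and 45.1%, and the genotypes did not overlap in the 5 ratios drawn, unlike the ratio of Atp2a3 to Atp2a2, which is not drawn.

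Reuptake into the store rests on SERCA pumps, and both genes tested fell, where 30.6% of all genes tested were called lower. Atp2a2, the main SERCA pump of smooth and heart muscle (chromosome 5, 122453513 to 122502225, minus strand), was the most abundant of the members that serve the store. Its level was 185 FPKM in both WT libraries and 71.4 and 90.5 FPKM in KO, a 2.29-fold lower mean (limma log2 fold change -1.20, SE 0.12, adjusted p = 7.43e-07). Atp2a3 (chromosome 11, 72961169 to 72993044, plus strand), a SERCA pump known in endothelium and blood cells, was at 26.6 and 29.7 FPKM in WT and 12.1 and 14.1 FPKM in KO (limma log2 fold change -1.05, SE 0.12, adjusted p = 3.63e-06). Within a library the ratio of Atp2a3 to Atp2a2 was 0.144 and 0.160 in WT and 0.169 and 0.156 in KO, and these overlapped. Pln, which encodes phospholamban, the small membrane protein that restrains SERCA, was under the filter at 0.735 and 0.997 FPKM in WT and 0.0174 and 0.131 FPKM in KO. The annotation places 59.6% of its exonic bases opposite another gene, Gm47644. A listed value near 0 may also be a failed estimate, since Eln, the elastin gene, was listed at 0 in all 4 aorta libraries. The Pln levels did not overlap between genotypes and were not tested.

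Among the extrusion genes, transcripts of the pump gene Atp2b4 fell and those of Atp2b1 rose. Atp2b4 (chromosome 1, 133699457 to 133801041, minus strand), a PMCA pump, was at 42.8 and 48.4 FPKM in WT and 10.8 and 15.6 FPKM in KO. This 3.45-fold lower mean was the second largest fall among the tested members on the log2(FPKM + 1) scale (limma log2 fold change -1.73, SE 0.15, adjusted p = 2.13e-07). Atp2b1 (chromosome 10, 98914406 to 99026143, plus strand), the PMCA pump found in most tissues and a gene linked to blood pressure, was at 12.4 and 13.7 FPKM in WT and 21.4 and 26.6 FPKM in KO (limma log2 fold change 0.83, SE 0.13, adjusted p = 5.97e-05). The ratio of Atp2b1 to Atp2b4 within a library was 0.289 and 0.282 in WT and 1.97 and 1.70 in KO. Atp2b4 was thus the more abundant in WT libraries and Atp2b1 in KO libraries. Slc8a1, the sodium-calcium exchanger, was at 4.56 and 4.75 FPKM in WT and 1.69 and 2.53 FPKM in KO (limma log2 fold change -0.88, SE 0.14, adjusted p = 0.00011). It was still called at -0.39 with trends in length and GC taken out (limma adjusted p = 0.0131) and at -0.44 with a pseudocount of 5 FPKM. The 3 genes together stood at 59.8 and 66.8 FPKM in WT and 33.9 and 44.7 FPKM in KO.

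Calmodulin and its kinases moved in different directions. Calmodulin is encoded by several genes with the same protein product. Calm2 (chromosome 17, 87433412 to 87446935, minus strand), the most abundant of all 38 genes, was at 231 and 242 FPKM in WT and 382 and 400.1 FPKM in KO. Its mean was 1.65-fold higher (limma log2 fold change 0.72, SE 0.09, adjusted p = 1.1e-05). The rise was 0.46 with equal column totals, 0.38 with quantile normalization and 0.21 with trends in length and GC taken out, and in the last of these it was not called (limma adjusted p = 0.0678). Part of the Calm2 transcript is 96.9% identical to the gene Gm7308 over 447 bases, so its level is uncertain, as are those of Calm3, Atp2a2 and Atp2b1, which have like copies. Calm3 was at 198 and 168 FPKM in WT and 202 and 174 FPKM in KO, with overlapping groups (limma log2 fold change 0.04, SE 0.11, adjusted p = 0.738). The ratio of Calm2 to Calm3 was 1.17 and 1.44 in WT and 1.89 and 2.29 in KO.

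Camk2g (chromosome 14, 20734875 to 20794088, minus strand), which encodes the gamma form of calcium/calmodulin-dependent kinase II, was at 44.4 and 47.2 FPKM in WT and 17.8 and 21.8 FPKM in KO (limma log2 fold change -1.18, SE 0.12, adjusted p = 1.18e-06). The delta form, Camk2d, was at 28.4 and 27.0 FPKM in WT and 19.7 and 22.8 FPKM in KO, a smaller fall (limma log2 fold change -0.37, SE 0.11, adjusted p = 0.0107). The Camk2d call ended without WT library 1 (-0.34, limma adjusted p = 0.123), without WT library 2 (-0.41, 0.0557) and with trends in length and GC taken out (-0.21, 0.0783), over a range of adjusted p from 0.000181 to 0.123, and with equal column totals it was -0.63. Camk2g was the more abundant in WT, with a ratio of Camk2d to Camk2g of 0.640 and 0.573, and the 2 forms were about level in KO, at 1.11 and 1.05.

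Ratios and shares within a library do not depend on its FPKM total, and 17 were computed. With 2 libraries against 2, the smallest two-sided p of an exact permutation test is 0.33, and the ratios are given as values only.

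Other genes of calcium handling were taken from lists of 132 genes, of which 131 were found and 78 tested. Of these, 32 fell and 23 rose, 41.0% and 29.5%, against 30.6% and 35.2% of all genes tested. Among the 78, Cacna1a, Atp2b2, Slc24a4 and Pcp4 reached the filter in WT only and Camk1d in KO only. Genes for other plasma membrane exchangers and pump partners fell in 5 of 6 cases. Of these, Slc24a4 and Atp2b2 reached the filter in WT only and could be called only as lower, and 3 of the other 4 fell. Slc24a4, a potassium-dependent sodium-calcium exchanger, was at 9.83 and 8.46 FPKM in WT and 0.362 and 0.989 FPKM in KO (limma log2 fold change -2.62, SE 0.17, adjusted p = 1.27e-08). Bsg, a pump partner and the most abundant gene of that list, was not called, at 297 and 305 FPKM in WT and 323 and 355 FPKM in KO.

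Other genes of store release and membrane junctions fell in 5 of 11 cases and rose in 3, where 30.6% and 35.2% of all genes tested were so called. Mrvi1, the IP3 receptor partner through which cyclic GMP lowers calcium release, was at 57.5 and 61.5 FPKM in WT and 14.6 and 17.1 FPKM in KO (limma log2 fold change -1.85, SE 0.11, adjusted p = 9.54e-09). The riser with the largest change, Sri (sorcin), reached only 0.38 on the log2 scale, a call that ended with equal column totals (0.12, limma adjusted p = 0.278), with trends in length and GC taken out (0.14, 0.215) and without WT library 1 (0.34, 0.0947). Tmem110, an activator of STIM at the junction between store and plasma membrane, fell from 71.2 and 71.8 FPKM to 17.5 and 18.8 FPKM (limma log2 fold change -1.92, SE 0.10, adjusted p = 2.93e-09), the only called gene among 4 tested partners of store-operated entry. Rrad, a small GTPase that inhibits voltage-gated calcium channels, fell from 147 and 158 FPKM to 41.4 and 49.4 FPKM (limma log2 fold change -1.73, SE 0.11, adjusted p = 1.28e-08). Its relative Rem1 rose by 0.89, and Gem, of the same list, was called lower (limma log2 fold change -0.47, adjusted p = 0.0178). Gem was chosen after its values were seen. Of 6 tested genes of that list, 4 fell and 1 rose, beside 30.6% and 35.2% of all genes tested. Of the other channels, 4 of 7 tested fell and 1 rose, beside 30.6% and 35.2% of all genes tested. Pkd1, polycystin 1, fell from 112 and 113 FPKM to 40.6 and 46.4 FPKM, and P2rx5 fell by 1.42 on the log2 scale. P2rx7, an ATP-gated channel of macrophages, rose by 1.33.

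Genes for calcium handling by mitochondria rose in 6 of 9 cases and fell in 2. Over all genes tested, 35.2% and 30.6% were so called. Not all of these 9 genes promote uptake. Ccdc109b, the older symbol of Mcub, a pore subunit that dampens the mitochondrial uniporter, was at 1.06 and 1.26 FPKM in WT and 18.3 and 17.6 FPKM in KO (limma log2 fold change 3.14, SE 0.12, adjusted p = 1.5e-10). Mcur1 fell by 0.63, and Smdt1, an essential small subunit of the uniporter, rose from 186 and 166 FPKM to 280.2 and 284 FPKM, a call lost with trends in length and GC taken out (0.20, limma adjusted p = 0.11). Among other calmodulin genes 9 of 23 fell and 7 rose, beside 30.6% and 35.2% of all genes tested. Pcp4 reached the filter in WT only and could be called only as lower. Camk1d reached it in KO only and could be called only as higher. Of the 21 that reached it in both genotypes, 8 fell and 6 rose. Rcan1, an inhibitor of the calmodulin-dependent phosphatase calcineurin, rose from 15.7 and 17.4 FPKM to 75.8 and 79.6 FPKM (limma log2 fold change 2.17, SE 0.11, adjusted p = 1.18e-09), whereas Pcp4l1, related to a calmodulin-binding peptide, was the gene with the largest fall at -2.98.

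**Figure D4:**
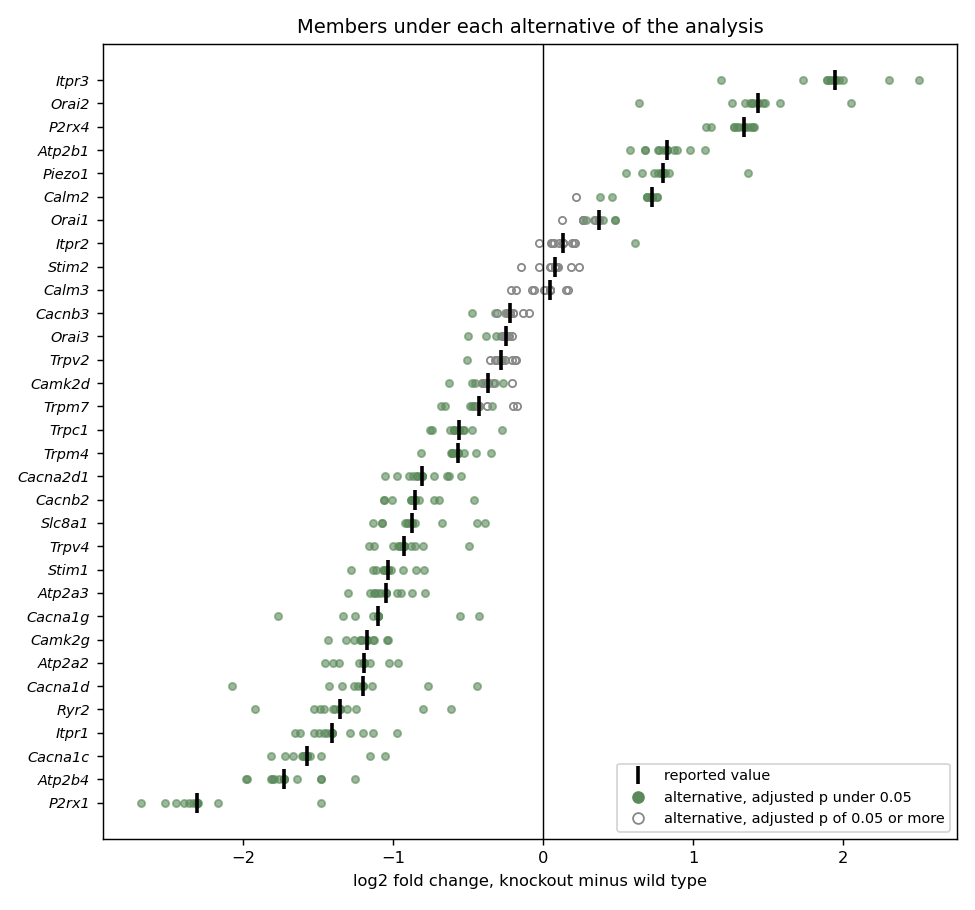
Log2 fold change (KO minus WT) of each tested member as reported (black tick) and under up to 14 alternatives of scaling, filter, pseudocount, model and library choice, with filled green points for an adjusted p under 0.05 and open grey points otherwise. Of the 26 called members, 22 have only green points and 4 (Orai1, Trpm7, Calm2 and Camk2d) have grey ones, and no called member crosses 0.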

How the data were processed

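The authors deposited 1 file per library, whose values are FPKM per the file headers (which spell the unit PFKM). Per the submitters' processing notes, the build was mm10 and the tools were DESeq2 1.16.1, featureCounts 1.5.0-p3 and HISAT2 2.0.5, with no step named. Neither the program that made FPKM nor the use of strand is stated. Per the labels' protocols, polyadenylated RNA was fragmented and primed with random hexamers.

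Groups were taken from the genotype label, and library numbers pair nothing. Nothing says that the 2 libraries of a genotype share no animals, so p-values measure the spread between libraries, which may be technical. The search for whole fragments, among genes under 0.3 FPKM, found no common step (at most 0.464% of genes shared a ratio), so depth is unknown and no counts were used. In R 4.3.3, limma 3.58.1 with its trend option was fitted to log2(FPKM + 1) for 12313 genes at 1 FPKM or more in at least 2 libraries, with Benjamini-Hochberg adjustment over all of them. The pseudocount makes fold changes of low genes too small, and each test had 13.4 degrees of freedom after sharing of the spread between genes. Folds of named genes are ratios of mean FPKM. For 2 symbols that stand on more than 1 row, the first row was used. The test was tested on simulated data. Noise there was drawn independently for each library and few genes were changed, so the simulation does not show that the p-values given here hold.

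The members and gene lists were chosen with earlier results of these data known. Described in full are members called at 2-fold or more, members under the filter and the most abundant of each role, and of each other list the called gene with the largest change in each direction and the most abundant one. An item that this rule names is not reported here. Annotation came from GENCODE M21 (GRCm38), exonic overlap from its exons, and near-identical copies from BLAST+ 2.17.0 at 95% identity over at least 300 bases. Promoter sequences came from RefSeq. The 14 alternatives changed the pseudocount, filter, scaling, model or libraries used.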

Additional observations from a re-analysis of the deposited data

How the results depend on the processing

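The 26 member calls kept their direction under all 14 alternatives that tested them, and 22 kept their side of the threshold. The filter of 5 FPKM left 7 tested members out. Of the 6 members not called, 4 were called under at least 1 alternative. The counts of lower and higher members stayed within 1.5 times of 19 and 7 (14 to 22 and 6 to 7), as did the counts over all genes. The median log2 fold change of tested members, -0.57, was -0.79 with equal column totals, -0.43 with the filter of 5 FPKM, -0.39 with trends in length and GC taken out, -0.68 and -0.39 with pseudocounts of 0.1 and 5 FPKM, and -0.64 to -0.47 with 1 library left out. The median of all genes changed sign with equal column totals (-0.20). Tested members have longer transcripts than all genes tested (medians of 4982 and 3366 bases), and removing length and GC trends moved 9 called members by over 1.5 times. Fkbp1a, the most abundant gene of the list of store release and junctions, was higher by 0.27 and was at -0.079 with quantile normalization. It was no longer called when column totals were made equal (0.011), with trends in length and GC taken out (0.12), with no intensity trend, and without KO library 2, WT library 1 or WT library 2 (adjusted p from 0.0509 to 0.922). With 1 FPKM added to each gene, the change in ratio (log2 of KO over WT) turned from 0.06 to -0.22 for the Cacna1c share, from -2.47 to 0.40 for Pln to Atp2a2 and from -0.14 to 0.77 for the Ryr3 share. With 1 library left out the Ryr3 value ran from -0.91 to 0.36 (0.36 without KO library 1 and 0.04 without WT library 1). The value for Pln to Atp2a2 was -4.26 without KO library 2 and -1.70 without KO library 1. Pln stood at no more than 0.997 FPKM in any library and Ryr3 at no more than 0.0697 FPKM, both less than the 1 FPKM added to each gene. The cause of these changes was not tested. The labels pair no libraries, but the column names carry the numbers 1 and 2 in both genotypes. A fit with that number as a replicate block, added after seeing the data, gave 4588 genes higher and 4043 lower, and 7 members higher and 22 lower. The block ended no member call and added Cacnb3, Orai3 and Trpv2 as lower. Deviations of same-numbered libraries had a correlation of 0.183 across genes, and the libraries were treated as sharing only a number. Depth is unknown, so precision rests on 2 libraries per genotype.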

Other observations

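Calcium-binding proteins of the store lumen were not among the 38 genes, and their list held both muscle forms and general forms. Of 11 tested genes, 5 rose and 2 fell, where 35.2% and 30.6% of all genes tested were so called. Casq1, the calsequestrin that buffers calcium in fast skeletal muscle, was at 200.4 and 157 FPKM in WT and 20.7 and 30.3 FPKM in KO (limma log2 fold change -2.77, SE 0.16, adjusted p = 4.43e-09). Other defining genes of skeletal muscle were far lower in the same libraries, with Myh1 and Myh4 listed at 0 in all 4, Acta1 at 0.109 and 0.316 FPKM in WT, and Ckm at 2.53 and 3.73 FPKM in WT. In KO, Ckm was at 0.0260 and 0.257 FPKM. Of 5 tested skeletal muscle markers, Casq1 among them, 4 fell and 0 rose, beside 30.6% and 35.2% of all genes tested. Ckm reached the filter in WT only and Mylpf in KO only. The source of the Casq1 transcripts was not tested. The heart form Casq2 was at 0.0519 and 0.200 FPKM in WT and was listed at 0 in both KO libraries. Hrc, a histidine-rich calcium-binding protein of the muscle store, was at 11.01 and 10.7 FPKM in WT and 1.18 and 1.80 FPKM in KO (limma log2 fold change -2.26, SE 0.14, adjusted p = 1.09e-08). Hspa5, a chaperone that also binds calcium, rose from 327 and 304 FPKM to 655 and 771 FPKM (log2 fold change 1.17, limma adjusted p = 2.99e-07), and Rcn1, a reticulocalbin, rose by 0.86. The most abundant of them, Rcn3, was at 754 and 718 FPKM in WT and 605 and 696 FPKM in KO and was not called (log2 fold change -0.18, limma adjusted p = 0.117). Casq2, Hrc and Rcn1 were chosen after their values were seen.

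Among inhibitors of calcineurin, Rcan1 and Rcan2 moved in opposite directions. Their relative Rcan3 was called higher (limma log2 fold change 0.457, adjusted p = 0.00405). Cabin1, of the same list, was called lower (limma log2 fold change -0.605, adjusted p = 0.000384). Rcan2 was at 126 and 121 FPKM in WT and 28.6 and 39.1 FPKM in KO (limma log2 fold change -1.85, SE 0.13, adjusted p = 3.5e-08), against the rise of Rcan1 by 2.17. Rcan2, Rcan3 and Cabin1 were chosen after their values were seen.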
